A study of Rattus norvegicus with 10 samples.

Results

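In 387 genes of the rat hippocampus, the probe set with the highest signal was constant over the 10 arrays whereas a dimmer probe set of the same gene varied between rats. These variable dimmer probe sets, 455 in all, are described here. They were chosen from the 31042 probe sets of the array by their mean and standard deviation (SD) in these same data: among the 20826 probe sets annotated with exactly 1 gene symbol, a member had an SD above 0.01 log2 units over the 10 arrays, and the brightest probe set of its gene by the mean had an SD of 0.01 or less. Hippocampal RNA of male Wistar rats was hybridized to Affymetrix arrays, with 5 rats in the C-group, which were fed solid chow, and 5 rats in the P-group, which were fed powdered feed. All rats were first acclimated on powdered feed, the diets were then given for 8 days around weaning with water and feed freely available, and the labels give the age as 4 weeks. The comparison asks how gene expression differs with the chewing that a diet requires. Rats are named C1 to C5 and P1 to P5 after the replicate numbers in the labels, and each array stands for a separate rat according to the methods.

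A probe set is a group of short oligonucleotides that read a single stretch of a transcript, usually near the 3′ end, because labeling starts from the poly(A) tail. Many genes of neurons use several polyadenylation sites, splice forms or unspliced precursors, so probe sets of a gene can read different RNA molecules. The summarization used in the study, qFARMS, fits a common factor to the probes of a probe set and shrinks the set to a nearly constant value where its probes share no variation. A constant probe set therefore says little about how rats differ, and it does not show that its transcript was equal in all rats. The positions of the probes on the transcripts were not used here, and whether a member reads another transcript end or an intron was not tested. The members' levels, their pattern over the arrays and the annotation of their genes are given instead.

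The arrays differed in ways that bear on the members. Of the 18 hybridization controls, bacterial and phage RNA added after labeling, 14 were variable, and 13 of these were highest on the array of rat C1. The exception, a BioB probe set, was lowest there, at 7.04 against 8.23 to 8.64 in the other rats. The array medians ran from 7.0 to 7.02. The mean of the markers of hippocampal neurons, by the brightest probe set of each gene, was lowest in C1, at 8.70. It lay between 8.75 and 8.97 in the other 9 rats, and only 6 of these 12 probe sets were variable. The mean of the choroid plexus markers was above 7.6 in 3 C-group rats (C1, C2, C5) and 2 P-group rats (P3, P5), reaching 8.71 in C1, and at most 6.86 in the remaining 5 rats, and that of pineal markers was 8.40 in P2 and from 6.17 to 6.25 elsewhere. The part of these differences in the results below was not tested. A level in tissue cannot tell fewer cells of a type from less RNA per cell.

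The members were mostly not faint. Their means ran from 5.72 to 12.81 on the log2 scale of the array, with a median of 7.98 and quartiles of 7.29 and 8.84, and 389 of 455 lay at or above 7.01, the median over all probe sets. The median of the 2449 other variable probe sets was higher, at 8.24, and that of the members' constant partners was 9.40. The gap between partner and member had a median of 1.17, below 0.5 for 95 members, from 0.5 to 1 for 92, from 1 to 2 for 167 and above 2 for 101. Levels of different probe sets also depend on how well their probes bind, so a gap is not a ratio of transcripts. The members' SD had a median of 0.217 and a maximum of 0.979, and that of the partners had a median of 0.000195 and a maximum of 0.00658.

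**Figure D1:**
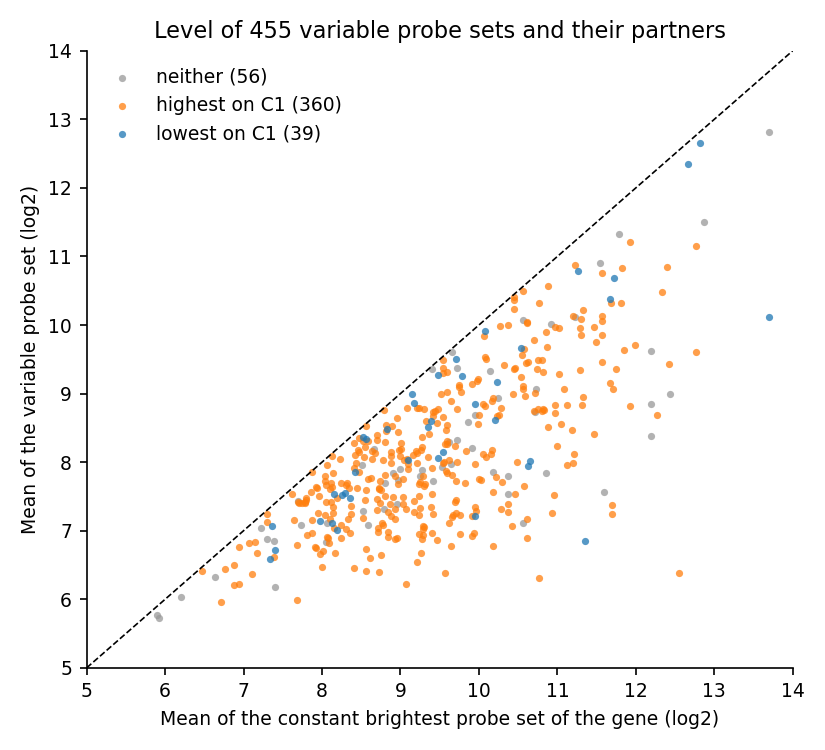
Mean over the 10 arrays of each of the 455 variable probe sets (vertical axis, log2) against that of the constant brightest probe set of its gene (horizontal axis, log2), with the line of equality dashed. Points are colored by whether the probe set was highest on C1 (360), lowest on C1 (39) or neither (56), and all lie below the line because of how the members were chosen.

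Brighter dimmer sets were more often variable. Of all 5728 dimmer probe sets under a constant brightest one, 455 (7.94%) were members. This share was 2.34% at means from 6 to 7, 11.3% from 7 to 8, 19.5% from 8 to 9 and 29.4% from 9 to 10, and 36 of the 85 probe sets above 10 were members. Where the brightest probe set itself varied, 186 of 881 dimmer ones did so (21.1%). The threshold passed through few probe sets. The members just inside it were Dnajc6, which encodes a clathrin uncoating factor, Map4k3 and Gpbp1, with SDs of 0.0113, 0.0123 and 0.0168, and just outside it lay probe sets of Elovl6, Gramd2b and Sync, with SDs of 0.00994, 0.00924 and 0.00871. Only 12 members had an SD below 0.05, and 413 exceeded 0.1.

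The largest gap was that of Gnas, which encodes the stimulatory G protein subunit. Its member had a mean of 6.39 and its partner one of 12.55. The member was at 6.96, 6.60, 6.29, 6.25 and 6.28 in C1 to C5 and at 6.54, 6.29, 6.34, 6.12 and 6.22 in P1 to P5. It was highest in C1, and the groups overlapped. Gaps above 4 were also found for a ribosomal protein gene, Rps24 (4.51), for the receptor phosphatase gene Ptprd (4.46) and for both members of Prrc2c (4.45 and 4.32). At the other end, members of Runx1t1, U2surp, Kdm5b, Rab14 and Evi5 lay within 0.0345 of their constant partners. Runx1t1, which encodes a transcriptional corepressor, had its member at 7.86 and its partner at 7.87, so a probe set almost as bright as a constant one could vary from 7.59 to 8.14.

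The members shared a pattern over the arrays in which C1 stood highest. The mean deviation of the 455 members from their own means was 0.29 in C1, 0.12 in C2, -0.02 in C3, 0.02 in C4 and -0.10 in C5. In the P-group it was 0.11 in P1, -0.06 in P2, -0.04 in P3, -0.14 in P4 and -0.18 in P5. Thus C1, C2 and P1 were high and C5, P4 and P5 low, with rats of both groups on each side. The same mean over the 2449 other variable probe sets ran from -0.05 in P5 to 0.05 in C1. The value on C1 was the highest of the 10 for 360 members (79.1%), the lowest for 39 (8.57%) and neither for 56. Of the other variable probe sets, 1193 (48.7%) were highest and 602 (24.6%) lowest on C1, and of all probe sets 41.0% were highest and 19.7% lowest there. Of the 186 variable dimmer probe sets under a variable brightest one, 105 (56.5%) were highest and 30 (16.1%) lowest on C1. The lowest value fell on P5 for 149 members and on P4 for 97.

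**Figure D2:**
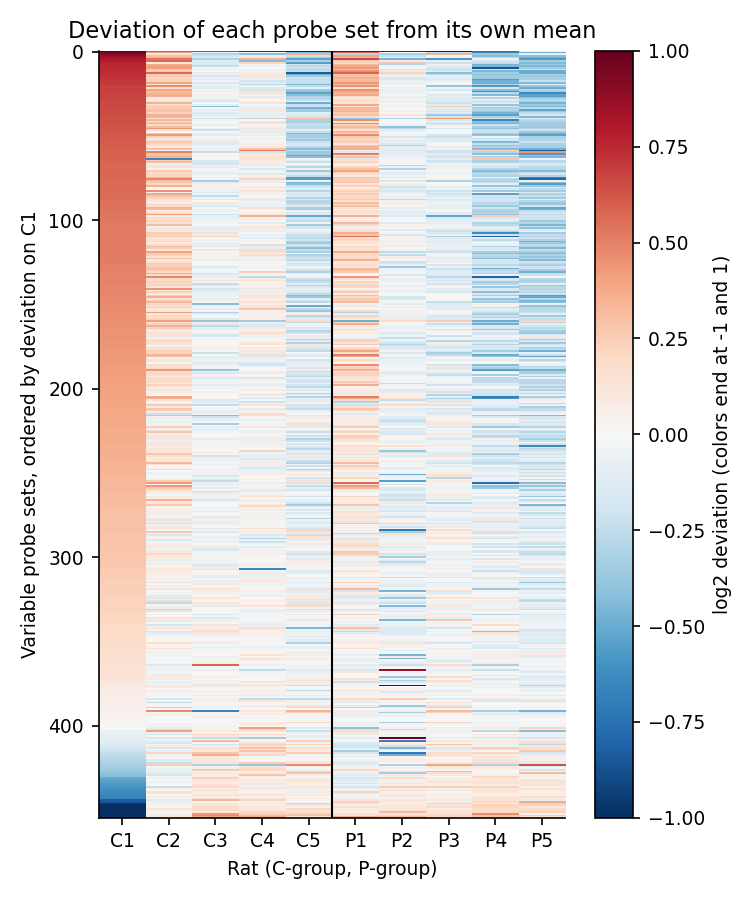
Deviation of each of the 455 members (rows) from its own mean over the 10 rats (columns), in log2 units, with red for higher and blue for lower values. Rows are ordered by the deviation on C1, and the line separates C-group from P-group. Most rows are red in C1 and paler red in C2 and P1, and blue in P4 and P5, whereas the rows at the bottom are blue in C1 and pale elsewhere.

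Because C1 also entered the choice of members, the choice was repeated on the other 9 arrays. It gave 456 probe sets, of which 451 were members already, and 361 of the 456 (79.2%) were highest on C1. The deposited values had been summarized with C1 included. The hybridization controls did not follow the whole pattern: the mean deviation of the 14 variable ones was 0.20 in C1, 0.19 in C4, where the members were at 0.02, and 0.06 in P4, where the members were low. Without the BioB probe set that was lowest in C1, the other 13 were at 0.32 in C1, 0.18 in C4 and 0.04 in P4. A control probe set for the 5′ part of beta-actin, the end that labeling reaches last, was at 11.11 in C1 and from 11.12 to 11.39 in the other rats. The next lowest rat was P5, at 11.12, where the members were also lowest. The 5′ control probe sets of GAPDH and hexokinase were constant, with SDs of 0.00014 and 0.00017.

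**Figure D3:**
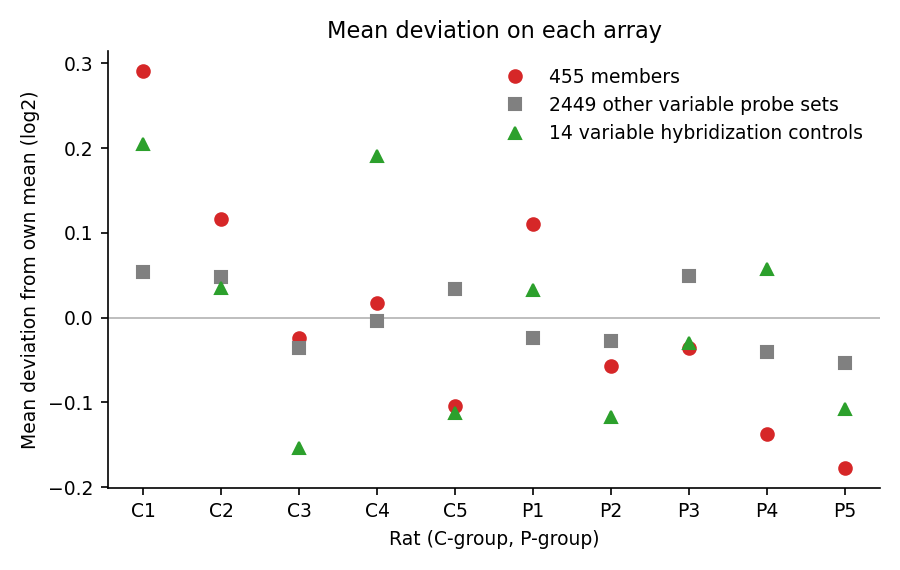
Mean deviation from the own mean (vertical axis, log2) on each of the 10 arrays for the 455 members, the 2449 other variable probe sets and the 14 variable hybridization controls. The members reach 0.29 in C1 and -0.18 in P5, the other variable probe sets run from -0.05 to 0.05, and the controls are at 0.20 in C1 and 0.19 in C4, or at 0.32 and 0.18 without the 1 control that was lowest in C1.

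The pattern did not rest on C1 alone. The median correlation between members over the 10 arrays was 0.61, against 0.06 between the other variable probe sets, and without C1 it was 0.33 against 0.02. All members share these 10 libraries, so these correlations are descriptive. The first principal component held 65.7% of the variance of the members and 47.8% of that of the other variable probe sets. Without C1 these shares were 52.4% and 29.6%. Of members of the same gene, 84 pairs could be formed in 55 genes, with a median correlation of 0.86 (0.84 without C1). Values were above 0.5 in 69 pairs and below 0 in 10, of which 4 were below -0.5.

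Zfp91, Atrx and Homer1 had 4 members each, the most of all. The first encodes a zinc finger protein that acts as a ubiquitin ligase, and its member 1377105_at was at 9.96, 9.72, 9.37, 9.55 and 8.95 in C1 to C5 and at 9.67, 9.32, 9.19, 9.08 and 8.92 in P1 to P5. C1, C2 and P1 were high, C5 and P5 low, and the groups overlapped. Its 4 members correlated with each other at 0.95 to 0.98, around means from 8.65 to 9.49 and a constant partner at 9.54. Atrx encodes a chromatin remodeler of heterochromatin, and its members, at means from 7.30 to 8.40, correlated at 0.89 to 0.99. The Atrx member 1385006_at was at 9.15, 8.82, 8.41, 8.40 and 8.19 in C1 to C5 and at 8.83, 8.41, 8.22, 7.54 and 8.04 in P1 to P5. P4 was its lowest rat.

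Homer1 encodes a scaffold protein of excitatory synapses, and it is known for a long form and for a short form, induced by activity, that ends in an intron of the long form. Its members did not move together, with correlations from -0.74 to 0.80. The member 1370454_at was at 8.01, 8.72, 9.18, 9.06 and 8.83 in C1 to C5 and at 8.97, 8.97, 8.95, 8.98 and 8.75 in P1 to P5. The member 1370997_at was at 6.62, 6.98, 7.40, 7.15 and 7.33 in C1 to C5 and at 7.01, 7.47, 7.46, 7.43 and 7.26 in P1 to P5. Both were lowest in C1. The member 1368319_a_at was instead highest in C1, at 7.49, and from 7.20 to 7.46 in the other rats, and the fourth, 1370656_a_at, was at 8.76 in C1 and from 8.43 to 8.87 in the others. The constant brightest probe set was at 9.95. Which form each probe set reads was not analysed here.

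Besides Homer1, Elavl2, Hnrnpa2b1 and Zfp292 had members both highest and lowest on C1. Hnrnpa2b1 encodes a nuclear RNA-binding protein that takes part in splicing. Its member 1378543_at was at 6.98 in C1 and from 7.81 to 8.19 in the other rats, whereas 1395561_at was at 9.79 in C1 and from 9.28 to 9.61 in the others. The correlation between both was -0.77. In 41 of the 55 genes with several members, all members were highest on C1.

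The 39 members lowest on C1 differed from the 360 highest on C1 in level and annotation. Their median mean was 8.36 against 7.96 and their median gap 0.783 against 1.24. The sequence behind the probe set was a RefSeq transcript for 8 of the 39 (20.5%) against 9.72% of the 360. For the 56 members that were neither, this share was 16.1% and the median gap 1.23. C1 was far below the others in several of the 39. Ppp3ca, the catalytic subunit of calcineurin, was at 10.22 in C1 and from 12.78 to 13.07 in the other 9 rats, and Rbfox1, a neuronal splicing factor, was at 8.36 in C1 and from 10.90 to 11.26 in the others. Arf1, a GTPase of vesicle budding, was at 8.53 in C1 and from 10.35 to 10.84 in the others. Atp1b1, a subunit of the sodium pump, was at 11.00 against 12.40 to 12.56, and Ube2k, a ubiquitin conjugating enzyme, at 8.37 against 9.73 to 9.86. In these genes C1 was separate from all other rats.

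By the RefSeq gene table of assembly GRCr8, the median span of the genes of members was 61.9 kb, against 32.7 kb for the other genes with 2 or more probe sets. Genes with a variable brightest probe set had a median of 50.2 kb, and those with a variable dimmer probe set under a variable brightest one 51.0 kb. The order against the other genes held within genes of equal numbers of probe sets: medians were 47.4 and 30.1 kb with 2 probe sets, 70.3 and 36.9 kb with 3, and 61.9 and 49.5 kb with 4. The median number of annotated transcripts was 5 in the genes of members and 4 in the genes of the 5273 constant dimmer probe sets. These probe sets had been designed from expressed sequence tags in 77.1% of members, 80.8% of constant dimmer probe sets and 85.8% of the constant partners, and from RefSeq transcripts in 11.4%, 7.68% and 6.98%. Variable dimmer probe sets under a variable brightest one lay nearer to the members, with 77.4% from expressed sequence tags and 10.2% from RefSeq transcripts, as did variable brightest ones, with 78.5% and 9.15%. The suffix _a_at, given to probe sets that match several transcripts of the same gene, was carried by 8.13% of members, 6.45% of variable dimmer probe sets under a variable brightest one, 5.48% of constant dimmer probe sets and 5.43% of partners. Probe sets of different genes are not replicates, and no test was made on these shares.

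Between the diets, the members were on the whole higher in the C-group, by less than the spread between rats. The median C-group minus P-group difference was 0.13 log2 units, with quartiles of 0.06 and 0.20 and a range from -0.54 to 0.63, and 402 of 455 members (88.4%) had a higher mean in the C-group. For all probe sets this share was 57.8%, with a median difference of 2.8e-05, and for the other variable ones it was 64.6%, with a median of 0.05. Among the latter, the 186 variable dimmer probe sets under a variable brightest one lay nearer to the members, with a median of 0.099. Without C1 the median of the members was 0.06, and 364 (80%) were higher in the C-group. The other variable probe sets then had a median of 0.03, with 65.3% higher in the C-group. Without C1 the difference moved closer to 0 by over 1.5 times or changed sign in 372 members, and changed sign in 84 of these, so most of the differences named below are given with and without C1. The median standard error of a member's difference was 0.131, and 180 members differed by less than their own standard error. The partners, constant by the rule, differed by at most 0.00309.

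**Figure D4:**
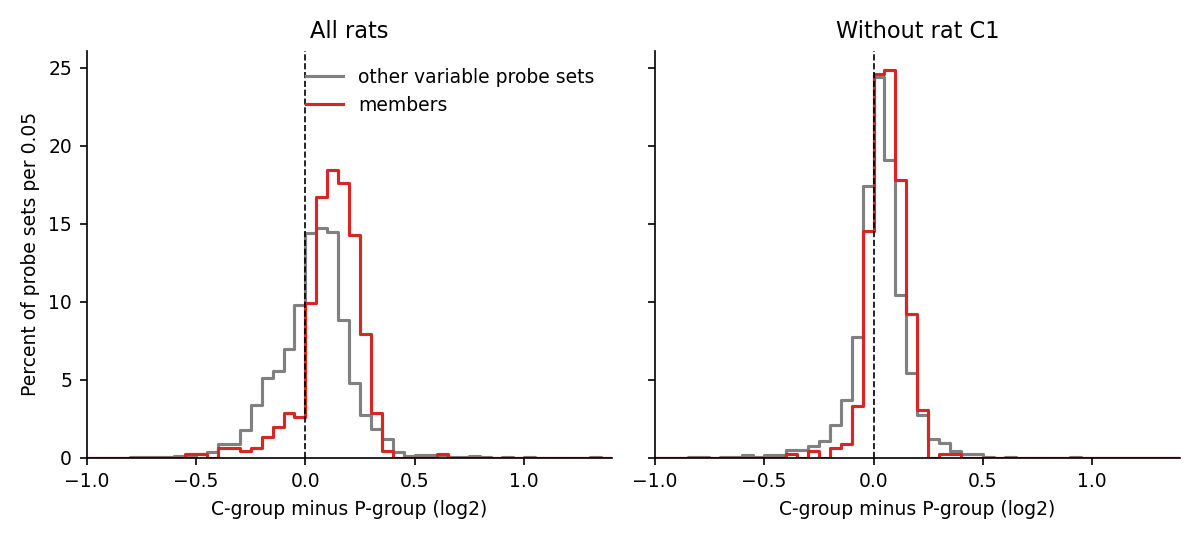
Percent of the 455 members (red) and of the 2449 other variable probe sets (gray) by their C-group minus P-group difference (horizontal axis, log2, in steps of 0.05), in all rats on the left and without C1 on the right. The members' median is 0.13 with all rats and 0.06 without C1, and that of the other variable probe sets is 0.05 and 0.03.

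No member passed limma, which weighs a difference against the spread within groups (background 0.00%). The lowest adjusted p from limma was 0.927. At an unadjusted limma p below 0.05 there were 8 members (1.76%), against 2.95% of all probe sets and 1.02% of the other variable ones. No member had groups without overlap. Of all probe sets, 0.258% had a higher C-group and 0.187% a lower one without overlap, and of the other variable ones 0.163% and 0.0817%. Rank products, the method of the study, ranks the sizes of differences without dividing them by the spread. At a false discovery rate below 0.05 it called 157 members (34.5%) higher in the C-group, in 135 genes, and 8 (1.76%) lower. Over all probe sets these shares were 2.0% and 0.416%, and over the other variable ones 18.9% and 4.94%. A constant probe set was never called, so the comparison with all probe sets follows from the rule. The calls also depended on ranking the constant probe sets together with the variable ones. With the constant ones left out, rank products called 0 members higher and 0 lower, and 9 of all variable probe sets higher. Of the 157 called higher, 143 were highest on C1.

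The number of rank product calls depended on single rats. Members called higher numbered 157 with all rats, 3 without C1, 11 without C2, 47 without C4, 91 without P4 and 65 without P5. Over all 31042 probe sets, 620 were called higher with all rats, and 61, 110, 234, 409 and 323 in these settings. The loss of calls was thus not particular to the members. No member of any of the gene lists below was called higher without C1. The 3 called higher without C1 were members of Vcan, Prrc2c and Unc79, and they were also called with all rats. Without C1, the median difference of the 157 was 0.13 in place of 0.23, with the same sign in 156. Members called lower numbered 8 with all rats and 8 without C1, of which 4 were called with all rats. They numbered 13 without C3, 14 without C5, 5 without P1, 2 without P2, 2 without P3, 0 without P4 and 1 without P5. Over all probe sets, 129 were called lower with all rats and 164 without C1. Without C3, C5, P1, P2, P3, P4 and P5 they numbered 221, 185, 82, 21, 49, 10 and 29.

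Vcan encodes versican, a proteoglycan of the extracellular matrix. Its member 1371232_a_at was at 7.98, 7.81, 7.39, 7.51 and 7.27 in C1 to C5 and at 7.67, 7.39, 7.24, 6.89 and 7.12 in P1 to P5. The groups overlapped, at 7.59 ± 0.30 (SD, n = 5) and 7.26 ± 0.29 (SD, n = 5), and differed by 0.33 (standard error 0.18). Prrc2c, which encodes an RNA-associated protein, had a member, 1392738_at, at 7.93, 7.71, 7.14, 7.31 and 6.99 in C1 to C5 and at 7.69, 7.24, 6.84, 6.67 and 6.87 in P1 to P5. It differed by 0.35 (standard error 0.24) and by 0.22 without C1. These 2 members of Vcan and Prrc2c were called by rank products without any single rat. Unc79, which encodes a part of the sodium leak channel complex, was at 7.05, 7.50, 7.57, 7.44 and 7.55 in C1 to C5 and at 7.12, 6.57, 7.47, 7.50 and 7.13 in P1 to P5. It was low in C1, and its difference of 0.26 (standard error 0.19) became 0.35 without C1, and its call was lost without C2, C3, C5 or P2.

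The members with the smallest unadjusted p included several with small spread. Rbm39, a splicing coactivator, was at 10.65, 10.63, 10.22, 10.46 and 10.51 in C1 to C5 and at 10.33, 10.04, 10.40, 10.17 and 10.21 in P1 to P5. C3 lay within the range of the P-group, and the gene differed by 0.26 with a standard error of 0.10 (adjusted p = 0.927 by limma). The deubiquitinase Usp11 differed by 0.16 (standard error 0.06), the chaperone Hsph1 by 0.09 (0.04), Baz2b, a bromodomain protein, by 0.30 (0.12), and Car2, a carbonic anhydrase, by 0.24 (0.10). Without C1, Rbm39, Usp11, Hsph1, Baz2b and Car2 differed by 0.22, 0.13, 0.07, 0.22 and 0.15. Each of these was highest in C1. Bex3, an adaptor of neurotrophin receptor signaling, was the only one of the 8 that was lower in the C-group. It was at 8.80, 8.56, 8.79, 8.47 and 8.48 in C1 to C5 and at 8.92, 8.99, 8.61, 8.86 and 8.82 in P1 to P5, a difference of -0.22 (standard error 0.09) that was -0.27 without C1.

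**Figure D5:**
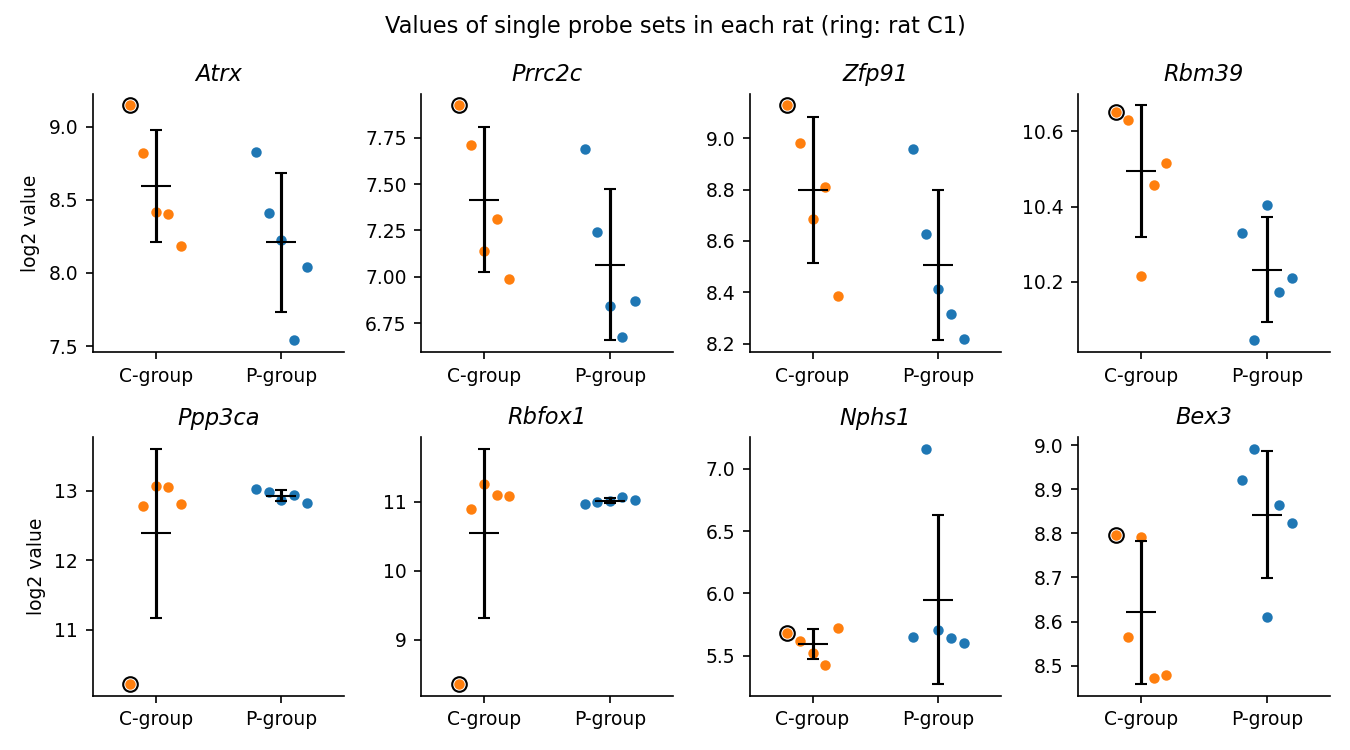
Log2 value of 8 members in each rat of the C-group (orange) and P-group (blue), with the mean and SD of each group in black and C1 ringed; the vertical axes differ. The groups overlap in every panel. C1 is highest for Atrx, Prrc2c, Zfp91 and Rbm39 and lowest for Ppp3ca and Rbfox1, and P2 is alone at 7.16 for Nphs1.

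Regulators of transcription and chromatin made up the largest of the gene lists among the members, with 19 members in 11 of the 26 listed genes that had 2 or more probe sets. All 19 had a higher mean in the C-group, as did 88.4% of all members, by 0.07 to 0.39 with a median of 0.20, and by a median of 0.11 without C1. None passed limma, and 16 were highest on C1. Rank products called 14 of them higher, beside 34.5% of all members, but 0 without C1, 2 without C2, 3 without C4 and 5 without P4 or without P5. The lists hold genes known to be of interest in these data and are not independent of them. Atrx (1385006_at) differed by 0.39 with a standard error of 0.27, and by 0.25 without C1. Kmt2a, a histone methyltransferase, differed by 0.28 (standard error 0.16), the acetyltransferase Crebbp by 0.27 (0.17) and Smarca4, the motor of a chromatin remodeling complex, by 0.24 (0.13). Without C1, Kmt2a, Crebbp and Smarca4 differed by 0.19, 0.17 and 0.15. Mef2a, a transcription factor of neuronal activity, had members at 0.13 (0.05) and 0.09 (0.11), and at 0.09 and 0.03 without C1. The first ran from 8.50 to 8.79 in the C-group and from 8.42 to 8.56 in the P-group. Zeb2, a repressor with 3 members, had 1 of them at 8.84, 8.57, 7.73, 8.40 and 7.50 in C1 to C5 and at 8.69, 7.57, 7.47, 8.10 and 7.47 in P1 to P5, with a difference of 0.35 (standard error 0.34), and 0.19 without C1. This was the largest difference of the 3, which began at 0.11. The 3 members did not all move together, with correlations from -0.18 to 0.77, and 2 were highest on C1.

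RNA-binding and splicing factors had 11 members in 9 genes. Of these members, 8 were higher in the C-group, and none passed limma. Their median difference was 0.09, and 0.05 without C1. Luc7l3, a splicing factor of the U1 particle, differed by 0.26 (standard error 0.16), and Hnrnpu, a nuclear RNA-binding protein, by 0.19 (0.10), which became 0.16 and 0.17 without C1. Rbfox1 differed by -0.47 (0.53), which became 0.07 without C1. Elavl2, a neuronal stabilizer of mRNA, had members at 0.02 (0.11) and -0.18 (0.14), and at -0.07 and -0.05 without C1. The second was at 8.88 in C1 and from 9.42 to 9.73 elsewhere. Outside the list, Sf3b2, a component of the U2 particle, differed by 0.33 (0.18), and by 0.21 without C1, and its values ran from 8.57 to 9.42 in the C-group and from 8.33 to 8.96 in the P-group.

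Receptors, channels and pumps of neurons gave 11 members. Grin2a, an NMDA receptor subunit, was at 8.42, 8.16, 8.13, 7.87 and 7.67 in C1 to C5 and at 8.45, 7.99, 7.59, 7.11 and 7.61 in P1 to P5. Its highest value fell on P1 and its difference was 0.30 with a standard error of 0.25, and 0.21 without C1. The obligatory NMDA receptor subunit Grin1 differed by 0.15 (0.10) and the AMPA receptor subunit Gria4 by 0.14 (0.15), which became 0.16 and 0.04 without C1. Gabbr1, a subunit of the GABA-B receptor, was at 8.58, 7.94, 8.02, 8.49 and 7.74 in C1 to C5 and at 8.06, 7.84, 7.80, 8.20 and 7.14 in P1 to P5. It differed by 0.35 (0.24), and by 0.24 without C1, 3.22 below its constant partner at 11.20. All 4 members of the calcium list were higher in the C-group and highest on C1: the release channel Ryr2 by 0.22 (0.20), the plasma membrane pump Atp2b2 by 0.21 (0.19) and the pump of the endoplasmic reticulum Atp2a2 by 0.18 (0.11) and 0.04 (0.05). Without C1, Ryr2 and Atp2b2 differed by 0.13 each and Atp2a2 by 0.10 and -0.0049, and the median of the 4 members was 0.11 in place of 0.20. The potassium channel genes Kcnd3, Kcnc2 and Kcnj4 differed by 0.22, 0.16 and -0.06, and without C1 by 0.12, 0.07 and 0.01.

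Among signaling genes, the tyrosine kinase Fyn differed by 0.19 (0.13), casein kinase Csnk1a1 by 0.18 (0.09) and the adaptor Ywhab by 0.26 (0.17). Without C1, Fyn, Csnk1a1 and Ywhab differed by 0.10, 0.13 and 0.17. Epha4, a receptor of ephrins, was at 8.99, 8.71, 8.65, 8.44 and 8.35 in C1 to C5 and at 8.82, 8.44, 8.31, 7.83 and 8.13 in P1 to P5. It differed by 0.32 (0.19), and by 0.23 without C1, 2.72 below its constant partner at 11.19. The small GTPases Rab3a, Rab2a and Rhoa differed by 0.18, 0.19 and 0.13, with standard errors of 0.09, 0.09 and 0.06, and by 0.13, 0.11 and 0.09 without C1. Arf1 differed by -0.38 (0.41), which was 0.03 without C1. All 6 members of the cytoskeleton and adhesion list were higher in the C-group, with a median of 0.21, or 0.12 without C1, and all were highest on C1. Sptbn1, a spectrin, differed by 0.30 (0.24), and the adhesion gene Ncam1 had members at 0.23 (0.16) and 0.20 (0.13). Without C1, Sptbn1 differed by 0.17 and Ncam1 by 0.11 and 0.13. Of the synaptic vesicle genes, Nsf, the ATPase that takes apart fusion complexes, had members at 0.21 (0.17) and 0.17 (0.12), and Syn1 had 1 at 0.08 (0.06). Without C1, Nsf differed by 0.11 and 0.13 and Syn1 by 0.03. In the translation and ubiquitin list, 5 of 6 members were higher in the C-group, Eif3a by 0.26 (0.21) and Nedd4 by 0.20 (0.13), and Ube2k differed by -0.26 (0.28). Without C1, Eif3a, Nedd4 and Ube2k differed by 0.13, 0.12 and 0.03.

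Some members belong to markers of cell types. Prlr, the prolactin receptor of the choroid plexus, had members at 0.63 (standard error 0.60) and 0.28 (0.26), and at 0.32 and 0.09 without C1. The first was at 8.06, 7.12, 5.77, 5.57 and 7.57 in C1 to C5 and at 5.54, 5.57, 7.49, 5.79 and 6.57 in P1 to P5. It was high in the same 5 rats in which the choroid plexus markers were high, in both groups, while the brightest Prlr probe set stayed at 6.87. All 3 members among the astrocyte markers were higher in the C-group and highest on C1, namely Aqp4, a water channel, by 0.32, Slc1a3, a glutamate transporter, by 0.27, and the connexin Gja1 by 0.22. Their standard errors were 0.32, 0.16 and 0.09. Without C1, Aqp4, Slc1a3 and Gja1 differed by 0.12, 0.13 and 0.13. Rank products called all 3 with all rats, beside 34.5% of all members and 18.9% of the other variable probe sets, but 0 without C1 and 1 without C2. The mean of the brightest probe sets of the astrocyte markers was lowest in C1, at 10.728, and from 10.734 to 10.802 in the other rats. Only 2 of these 9 probe sets were variable, and those of Aqp4, Slc1a3 and Gja1 were constant by the rule. This mean therefore cannot show whether the 3 genes were higher or lower in C1. The 3 members of Camk2a, the calcium-dependent kinase of excitatory neurons, differed by 0.04, 0.10 and 0.15 (0.07, 0.17 and 0.20 without C1) and were not highest on C1. The 5 oligodendrocyte members, of Mbp, Mobp, Cldn11 and Ermn, differed by -0.02 to 0.09. Aqp4, Slc1a3 and the oligodendrocyte genes were named after their values were seen.

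The 8 members called lower in the C-group by rank products were mostly those in which C1 was low, as 6 of them had their lowest value there. Ppp3ca differed by -0.54 with a standard error of 0.53, and by -0.0031 without C1. Larp1, a regulator of the translation of ribosomal protein mRNA, differed by -0.37 (0.31), Atp1b1 by -0.33 (0.29) and Igip by -0.31 (0.24), and without C1 by -0.05, -0.03 and -0.07. The calls of Ppp3ca, Larp1, Atp1b1 and Igip were lost without C1 and also without P2, P3, P4 or P5, those of Ppp3ca and Igip also without P1, and that of Ppp3ca also without C2. Mrpl50, a protein of the mitochondrial ribosome, was at 6.67, 7.46, 7.52, 7.57 and 7.51 in C1 to C5 and at 7.76, 7.62, 7.47, 7.71 and 7.89 in P1 to P5. It differed by -0.34 (0.18), and by -0.17 without C1, and its call was lost without P4 or P5. The call of Bex3 was lost without P4, and that of Homer1 (1370997_at), with a difference of -0.23 (0.16), without C2, P2, P3, P4 or P5. Nphs1, nephrin, was at 7.16 in P2 and from 5.42 to 5.72 in the other 9 rats, and its difference of -0.36 (0.30) was -0.06 without P2, the rat in which the pineal markers were high. Its call was kept without C1 or C5 and lost without any other single rat.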

How the data were processed

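The authors extracted total RNA from the hippocampus of 10 rats, labeled 100 ng for each array, and normalized and summarized the Affymetrix Rat Genome 230 2.0 arrays with qFARMS in R 2.7.2. They deposited log2 values, which were used here without change. Scanner files were not analysed here, and the summarization, which can shrink a probe set to a constant, was not repeated. The tests did not include the 57 control probe sets. The precision is limited by the number of arrays, 5 in each group.

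Gene symbols came from the platform annotation. The gene identifiers of all 455 members were found in RefSeq annotation (assembly GRCr8), from which gene spans were taken. No genome build is named for the values, so no coordinates are given, and probe positions and sequences were not used here.

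Members were found with Python 3.11.15 (numpy 2.4.6, pandas 2.3.3, matplotlib 3.10.9). limma 3.58.1 in R 4.3.3 (lmFit, eBayes, Benjamini-Hochberg adjustment, threshold 0.05) and rank products (unpaired, 25 between-group differences, 100 permutations within arrays, false discovery rate below 0.05) were run over all 31042 probe sets, and the members were read from those fits. Both scripts were tested on simulated data. The words rose and fell were kept for limma calls, of which there were none. Differences are C-group minus P-group on the log2 scale, and values in parentheses after them are standard errors from limma.

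The members, the gene lists and the rule for named genes were chosen with earlier results of these data known. The genes named are the 10 members with the largest difference in each direction, the 10 with the smallest limma p, the 5 largest and 5 smallest gaps, the 5 largest SDs, genes of the tables of the paper, up to 4 members of each list, the 3 genes with the most members and 3 probe sets on each side of the SD threshold. Unc79, Hnrnpa2b1 and the cell type markers were added after their values were seen. Alternatives changed the pairing, the normalization, the filters, the variance model, the SD threshold, the probe sets counted and the rats used. Leaving out both rats numbered 1 and choosing members without C1 were added after seeing the data.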

Additional observations from a re-analysis of the deposited data

Results flagged for a closer look

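In 20 of 182 groups of 5 rats, a named member had 1 rat far from the other 4 by Dixon's test, which flags about 1 group in 20 by chance. Many of these members were named for a large difference or SD, to which a single rat can lead, and the groups are not independent, so the number of groups is a description. The rat was C1 in 12 of the 20. C1 was low for Ppp3ca at 10.22 (other C-group rats from 12.78 to 13.07), Rbfox1 at 8.36, Arf1 at 8.53, Larp1 at 7.15, Mrpl50 at 6.67, Atp1b1 at 11.00, Igip at 7.50, Ube2k at 8.37 and Kpna1 at 7.49 (others from 8.52 to 8.64). C1 was high for Atp2a2 (1370426_a_at) at 11.40, Rab2a at 10.46 and Gpbp1 at 7.77. P2 was high for Nphs1 at 7.16 and low for Camk2a (1381637_at) at 8.93 and Ube2b at 6.56. P4 was low for Car2 at 9.72 and Ptprd at 6.18. C5 was high for Grin1 at 8.22 and low for Homer1 (1370656_a_at) at 8.43, and P5 was low for Homer1 (1370454_at) at 8.75.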

How the results depend on the processing

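limma called 0 members under every setting tried, with a lowest adjusted p for a named member of 0.254. The median difference of the members stayed above 0, at 0.06 to 0.18 when 1 rat was left out, and the number of members then ran from 449 to 459. It was 448 and 427 at SD thresholds of 0.05 and 0.1, 445 without probe sets ending in _s_at or _x_at, and 460 with the brightest probe set taken by its median. Members called higher by rank products numbered 157, and 3 to 230 without 1 rat, 101 without both rats numbered 1, 240 with the replicate block, 42 without dimmer probe sets and 0 without constant ones. Those called lower numbered 8, and 0 to 14 without 1 rat, 19 with the block, 2 without dimmer probe sets and 0 without constant ones. Over all ranked probe sets, 620 were called higher in the main setting and 9 without constant ones. The count was 61 to 789 without 1 rat, 345 without both rats numbered 1, 912 with the block and 157 without dimmer ones. Ranked probe sets called lower numbered 129 in the main setting and 10 to 221 without 1 rat. They numbered 338 with the block, 37 without dimmer ones and 0 without constant ones. Fewer probe sets were ranked without dimmer or without constant ones, and why fewer calls were made there was not tested. Members with an unadjusted limma p below 0.05 numbered 8, and 1 to 37 without 1 rat, 30 without both rats numbered 1, 142 with the block, 5 with a trended robust variance and 5 without constant probe sets. Of all probe sets fitted, 2.95% had such a p in the main setting and 1.98% to 5.77% without 1 rat. The share was 5.58% without both rats numbered 1, 5.57% with the block, 2.47% with the trended robust variance and 0.895% without constant ones. Members without overlap between groups numbered 0, and 0 to 8 without 1 rat. Same-numbered rats did not share deviations throughout (correlations over all probe sets from -0.42 to 0.49, the best match being the own number for 2 of 5 C-group and 3 of 5 P-group rats, and over the members 0.50, 0.25, -0.19, 0.47 and 0.70 for numbers 1 to 5), so the numbers were not taken as pairs. Of 1183 differences of the 91 named members under other settings, 1157 kept their sign. Those of Dnajc6 and Map4k3 turned to -0.0038 and -0.0042 with median centring and to -0.0049 and -0.0091 with quantile normalization. Leaving out 1 rat, signs turned for Arf1 (-0.54 to 0.030), Rbfox1 (-0.65 to 0.071), Ube2k (-0.34 to 0.029), Homer1 1370454_at (-0.27 to 0.024) and 1370656_a_at (-0.027 to 0.074), Kcnj4 (-0.10 to 0.015), Camk2a 1381637_at (-0.0052 to 0.20), Atp2a2 1370426_a_at (-0.0049 to 0.054), Dnm1l (-0.012 to 0.054), Ptprd (-0.048 to 0.017), Dnajc6 (-0.0033 to 0.0053) and Map4k3 (-0.0054 to 0.0052). The causes were not tested.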
